A study of Mus musculus with 6 samples.

Results

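The purine handling genes described here are 10 genes, Ada, Adk, Pnp, Dck, Nt5e, Entpd1, Ampd3, Slc29a1, Adora2a and Adora2b, whose products make, move, clear or sense adenosine. They were taken by gene symbol from the deposited table of raw counts, which lists 55291 gene names, and all 10 were found. RNA came from splenic natural killer (NK) cells of mice, the innate lymphocytes that kill stressed, infected or transformed cells. The 6 libraries were 3 from HSF1-S303/7A mice, whose heat shock factor 1 (HSF1) has alanine in place of serine at residues 303 and 307 (libraries S303/7A 5, 6 and 7) and 3 from mice wild type for HSF1 (libraries WT 1, 2 and 3), all at steady state and with 1 mouse per library. Cells of both groups were enriched with DX5 beads and sorted as CD49b+ and CD3e- cells. HSF1 is the transcription factor of the heat shock response, and the submitters describe the mutant mice as HSF1-enhanced. The labels place the mutation in the mice and name no cell type that limits it, and they give neither age, sex nor strain background. Bulk RNA from a sort cannot tell fewer cells of a type from less RNA per cell.

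Adenosine arises outside cells when ATP and ADP are cut to AMP by CD39, the product of Entpd1, and AMP is cut to adenosine by CD73, the product of Nt5e. It signals through the receptors encoded by Adora2a and Adora2b, which raise cyclic AMP and are known to restrain lymphocytes, NK cells included. It is taken up by the equilibrative transporter ENT1 (Slc29a1) and is then either phosphorylated to AMP by adenosine kinase (Adk) or converted to inosine by adenosine deaminase (Ada), whose loss in people causes severe combined immunodeficiency.

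The promoter of Ada is shown because Ada had by far the lowest fold of the group, and that of Adora2b because it held 3 matches to short heat shock element forms. Each sequence is the 250 bases before the annotated start from RefSeq on GRCm38.p6, 5′ to 3′ on the gene's strand. For Ada (chr2:163750240-163750489, minus strand) the capitals mark the GC box GGGCGG, and for Adora2b (chr11:62248734-62248983, plus strand) they mark the heat shock elements GAANNTTC and TTCNNGAA, in which inverted GAA units are recognised by HSF1.
Ada: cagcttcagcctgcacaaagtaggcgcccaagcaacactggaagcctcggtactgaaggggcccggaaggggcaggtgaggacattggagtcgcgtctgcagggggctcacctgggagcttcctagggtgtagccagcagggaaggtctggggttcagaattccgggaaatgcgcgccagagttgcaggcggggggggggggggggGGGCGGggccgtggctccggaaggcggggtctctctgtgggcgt
Adora2b: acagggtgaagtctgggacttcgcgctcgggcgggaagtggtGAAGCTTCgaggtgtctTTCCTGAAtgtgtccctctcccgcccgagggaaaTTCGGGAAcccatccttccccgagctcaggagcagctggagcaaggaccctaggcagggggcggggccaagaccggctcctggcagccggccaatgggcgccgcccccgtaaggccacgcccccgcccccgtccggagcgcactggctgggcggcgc

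Heat shock elements were searched in windows of 250 bases before to 50 bases after each start, as GAANNTTC or TTCNNGAA, which read alike on both strands and can overlap each other. Of 32851 such windows in the RefSeq table, 15.1% held at least 1. The 10 genes had 20 windows over 9 genes, with no window for Adora2a, and 5 windows over 3 genes held an element. The Ada window had 0 of either form. The Adora2b window had 1 GAANNTTC and 2 TTCNNGAA, and the Pnp window had 1 TTCNNGAA. Slc29a1, which has 8 annotated starts in the table, had elements in 3 of its windows. Of these windows 2 overlap and share 1 element, which is counted in both. In the other window, at the start farthest downstream, the elements overlapped to form 3 units in a row, which 0.603% of all windows held. The promoter of Hspa1b, an HSP70 gene induced by HSF1, was searched the same way for comparison and held 1 GAANNTTC. Neither the Adora2b window nor the Hspa1b window held 3 units in a row, so their counts of matches do not rank them as HSF1 sites. GGGCGG, read on both strands, was in 35.7% of all windows, 2 times in that of Ada (1 of them before the start) and 6 times in that of Adora2b. These matches describe letters in a window and not binding.

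Total counts ranged from 43189163 to 47248039 in S303/7A and from 53845572 to 72736406 in WT, so the WT libraries were deeper. Every member had between 65 and 10810 counts in every library, and all 10 passed the filter on low counts. Levels are given as CPM, counts divided by the TMM-scaled library size, and a fold is S303/7A over WT. Over the 16480 genes tested, 60 were called, that is, passed the quasi-likelihood test of edgeR at a Benjamini-Hochberg adjusted p under 0.05. That count was lower in every fit that left out 1 library, from 5 without WT 2 to 57 without S303/7A 6. The sorted cells carried NK transcripts in both groups: the 14 tested genes of an NK identity list summed to 27417 to 28447 CPM in S303/7A, against 26211 to 30496 CPM in WT. Within that list 9 log2 folds were above 0 and 5 below, from -0.54 for Klrb1c, the NK1.1 gene and the 1 called, to 0.57 for Klrk1, the NKG2D gene. B cell, T cell, basophil and platelet transcripts were present at lower levels in every library. Hsf1 itself was at 67.0, 42.2 and 76.9 CPM in S303/7A, against 83.2, 104 and 108 CPM in WT. The mutation changes codons, so this level does not check the labels.

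In all 3 S303/7A libraries Ada lay below the whole WT range, at 23.1% of the WT level, whereas none of the other 9 genes differed by a comparable factor. The members were grouped round Ada with its difference between these genotypes already known, so its fold and those of the other 9 are a description and carry no p. Of the 10 genes, 1 was called, Ada, against 0.364% of all genes tested. The 2 genes whose libraries did not overlap between the genotypes were Ada and Nt5e, against 16.0% of all genes tested. The log2 folds of the 10 had a median of -0.06, with 4 above 0 and 6 below, beside a median of 0.01 over all genes tested. Of the 10 folds, 8 lay within 1.5-fold in either direction, and the 2 that did not were Ada and Ampd3.

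**Figure D1:**
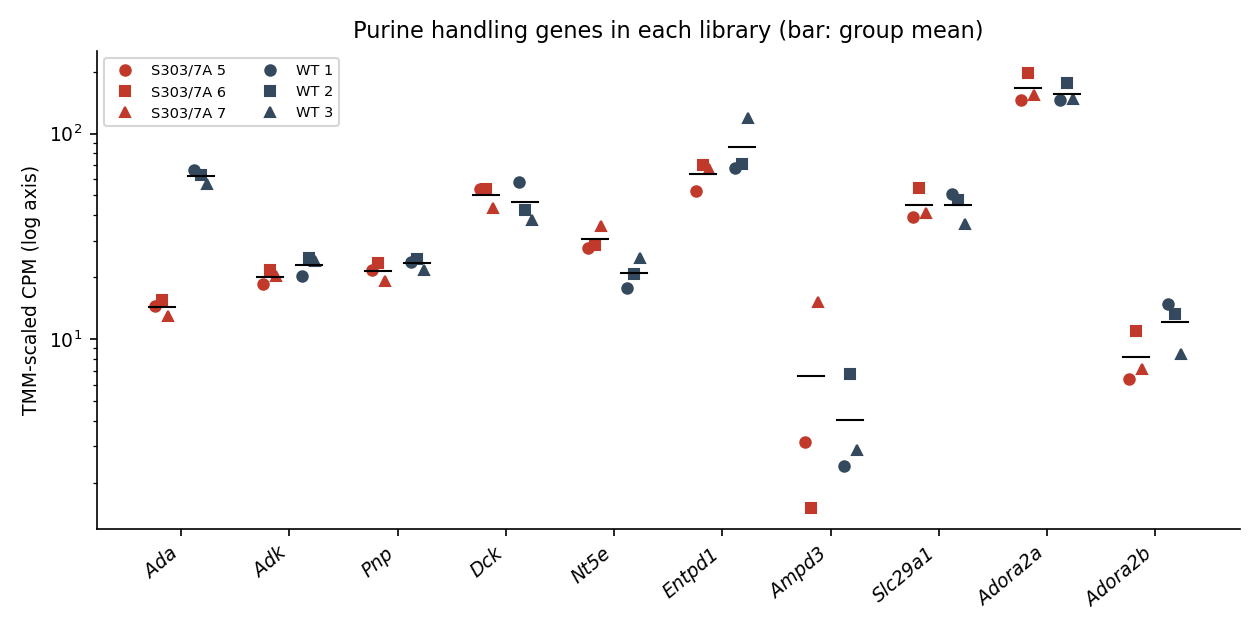
TMM-scaled CPM (log axis) of the 10 purine handling genes in each of the 3 S303/7A libraries (red, left of each pair) and the 3 WT libraries (blue-grey, right), with a bar at each group mean. Ada sits at 12.9 to 15.5 CPM in S303/7A, apart from 56.9 to 66.2 CPM in WT, and Ampd3 is spread most within both groups.

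Ada (ENSMUSG00000017697, chromosome 2, 163726584 to 163750239, minus strand, GRCm38), which deaminates adenosine and deoxyadenosine, was measured at 14.5, 15.5 and 12.9 CPM in S303/7A 5, 6 and 7, against 66.2, 62.7 and 56.9 CPM in WT 1, 2 and 3. These rest on 623, 669 and 601 counts in S303/7A and 4173, 3410 and 4182 counts in WT. The groups were far apart, and each was narrow. The mean was 14.3 ± 1.34 CPM in S303/7A, against 61.9 ± 4.68 CPM in WT (SD, n = 3 each), a log2 fold of -2.11 ± 0.12 (SE), which leaves 23.1% of the WT level. Over all genes tested, 5.04% had a log2 fold of -1 or less. Leaving out each library in turn, or changing the test or scaling, moved the Ada fold between -2.18 and -2.05 on the log2 scale.

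Adk (chromosome 14, 21052574 to 21448569), the kinase that returns adenosine to AMP and shares its substrate with Ada, was at 18.5, 21.6 and 20.2 CPM in S303/7A, against 20.2, 24.7 and 23.9 CPM in WT. The ranges overlapped slightly. Its log2 fold was -0.19 ± 0.14 (SE). To set the genes against each other, CPM was divided by the length of all annotated exons of each gene (CPM per kb). On that scale the ratio of Ada to Adk was 3.35, 3.06 and 2.71 in S303/7A 5, 6 and 7, against 13.9, 10.8 and 10.1 in WT 1, 2 and 3. Per length, Ada was the more abundant transcript of the pair in every library. The ratio averaged 3.04 ± 0.32 in S303/7A and 11.6 ± 2.03 in WT (SD, n = 3 each). That order rests in S303/7A on the exon lengths used, 2.002 kb for Ada and 8.526 kb for Adk. In undivided CPM, Adk was above Ada in every S303/7A library (means 20.1 and 14.3 CPM) and below it in every WT library (22.9 and 61.9 CPM).

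Pnp (chromosome 14, 50931082 to 50965237), the phosphorylase that splits the inosine made by Ada into hypoxanthine and a sugar phosphate, was at 21.6, 23.5 and 19.1 CPM in S303/7A, against 23.7, 24.6 and 21.7 CPM in WT, with overlap and a log2 fold of -0.12 ± 0.13. Ada to Pnp, 2 consecutive steps, gave narrow ratios within each group, 1.33, 1.31 and 1.34 in S303/7A and 5.56, 5.06 and 5.20 in WT on the CPM per kb scale. Pnp shares 97.2% of 1084 bases with Pnp2 and 718 exonic bases with Gm49342, which had 37 and 6 counts over the 6 libraries, so reads of these genes are uncertain.

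Dck (chromosome 5, 88764996 to 88783281), the kinase that traps deoxynucleosides, deoxyadenosine among them, inside cells, was at 54.0, 53.5 and 43.5 CPM in S303/7A, against 57.8, 42.6 and 38.1 CPM in WT. WT 1 exceeded every S303/7A library and the other two WT libraries lay below them, so the groups overlapped. The log2 fold was 0.12 ± 0.17. Ampd3 (chromosome 7, 110768206 to 110812405), a deaminase that turns AMP into IMP and is known from red cells, was at 3.15, 1.51 and 15.2 CPM in S303/7A, against 2.41, 6.75 and 2.88 CPM in WT. S303/7A 7 alone was high and S303/7A 6 was the lowest of all. Its log2 fold was 0.72 ± 0.82, and without S303/7A 7 it was -0.79. The next highest library was WT 2. These 2 libraries were also the highest in the B cell marker Cd79a (7.84, 6.87 and 21.6 CPM in S303/7A, 8.50, 22.9 and 3.10 CPM in WT). The B cell list summed to 513 to 682 CPM in S303/7A, against 331 to 696 CPM in WT, with 10 of 10 markers tested and none at 0 throughout. The globin gene Hba-a1 was at 0.98, 1.11 and 1.33 CPM in S303/7A, against 0.60, 1.40 and 0.71 CPM in WT, highest in the same 2 libraries. The erythroid list summed to 446 to 550 CPM in S303/7A, against 390 to 508 CPM in WT, with 10 of 11 markers tested. The part of B cells and of red cells in the Ampd3 values was not tested. Exons of Ampd3 overlap those of Rnf141 on the other strand by 195 bases, and Rnf141 had 8119 counts over the 6 libraries. The strand setting of the counting is not given in the sources used here, so reads of the shared bases are uncertain.

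**Figure D2:**
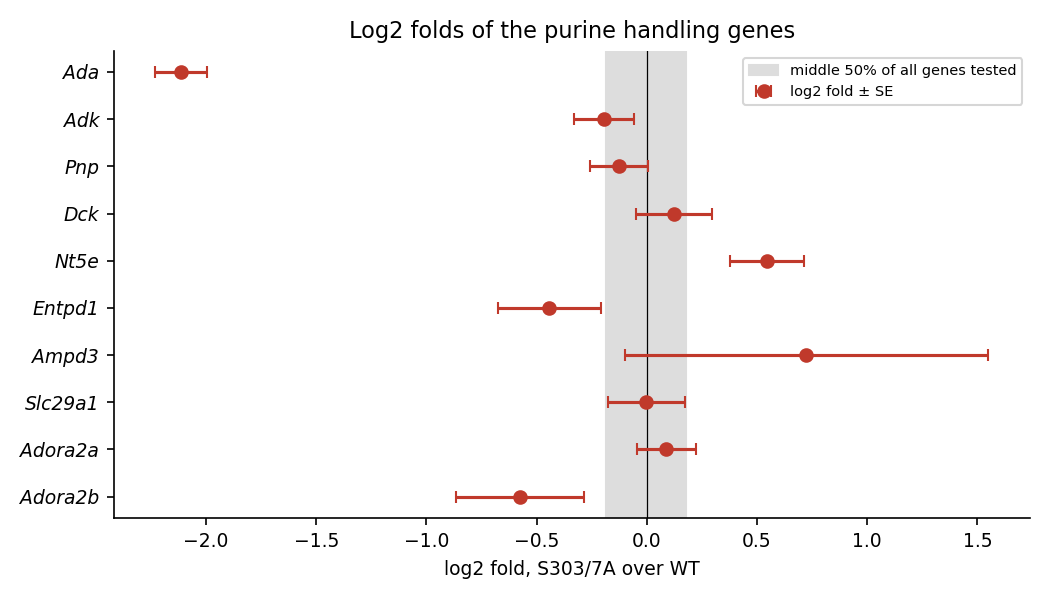
Log2 fold of S303/7A over WT with its SE for the 10 genes, with the middle 50% of all genes tested shaded (-0.19 to 0.18). Ada lies at -2.11, the other 9 between -0.58 and 0.72, and the SE of Ampd3 (0.82) is the widest.

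Of the enzymes that produce adenosine outside the cell, Nt5e had a higher mean in S303/7A than in WT and Entpd1 a lower one, both given as descriptions. Nt5e (chromosome 9, 88327197 to 88372092), which encodes CD73 and makes adenosine, was at 27.7, 28.8 and 35.5 CPM in S303/7A, against 17.6, 20.7 and 24.8 CPM in WT. All 3 S303/7A libraries were above all 3 WT libraries, with 30.6 ± 4.199 CPM in S303/7A, against 21.0 ± 3.59 CPM in WT (SD, n = 3 each) and a log2 fold of 0.54 ± 0.17. Entpd1 (chromosome 19, 40612366 to 40741602), which encodes CD39 and supplies AMP, was at 52.4, 70.2 and 67.3 CPM in S303/7A, against 68.0, 70.7 and 119 CPM in WT. WT 3 stood above the other libraries, and the rest overlapped. The log2 fold of Entpd1 was -0.44 ± 0.23, and -0.13 without WT 3. Per kb of exon, Nt5e was the scarcer of the pair in every library, with a ratio of Nt5e to Entpd1 of 0.343, 0.266 and 0.342 in S303/7A and 0.168, 0.190 and 0.135 in WT. The 3 ratios of S303/7A were all above those of WT. CD39 and CD73 are also carried by T and B cells. T cell markers summed to 532 to 576 CPM in S303/7A, against 489 to 624 CPM in WT, with overlap, as B cell markers did. Of 12 tested T cell markers 9 had log2 folds above 0 and 3 below. Cd3e was at 11.4, 11.8 and 14.8 CPM in S303/7A, against 8.16, 12.6 and 5.50 CPM in WT. Trbc2 (log2 fold 0.39 ± 0.08) and Cd8b1 (2.57 ± 0.78, at most 0.60 CPM in any library) were higher in S303/7A without overlap, as Nt5e was. Trac (-0.51 ± 0.19) was lower in S303/7A without overlap, and Trbc1 (-0.31 ± 0.12) had a fold below 0 with overlap. None of these 5 was called. The part of these cells in the Nt5e values was not tested.

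Slc29a1 (chromosome 17, 45585200 to 45599606), the uptake transporter, was at 39.1, 54.3 and 41.1 CPM in S303/7A, against 51.0, 47.4 and 36.3 CPM in WT. The libraries were interleaved and the log2 fold was 0.00 ± 0.18. Its exons overlap those of the antisense gene Gm17080 by 275 bases, and Gm17080 had 13 counts over the 6 libraries.

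Adora2a (chromosome 10, 75316877 to 75334784), the high-affinity receptor, was at 146, 198 and 154 CPM in S303/7A, against 145, 176 and 147 CPM in WT, fully interleaved, with a log2 fold of 0.09 ± 0.14. Adora2b (chromosome 11, 62248984 to 62266453), the low-affinity receptor, was at 6.37, 11.0 and 7.11 CPM in S303/7A, against 14.8, 13.2 and 8.42 CPM in WT. S303/7A 6 was above WT 3, so the groups overlapped, and the log2 fold was -0.58 ± 0.29, with -0.85 without S303/7A 6 and -0.41 without WT 1. Adora2a exceeded Adora2b per kb in every library, by a ratio of 13.8, 10.9 and 13.1 in S303/7A and 5.90, 8.03 and 10.5 in WT. The 2 groups did not overlap in that ratio, but S303/7A 6 and WT 3 were close.

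**Figure D3:**
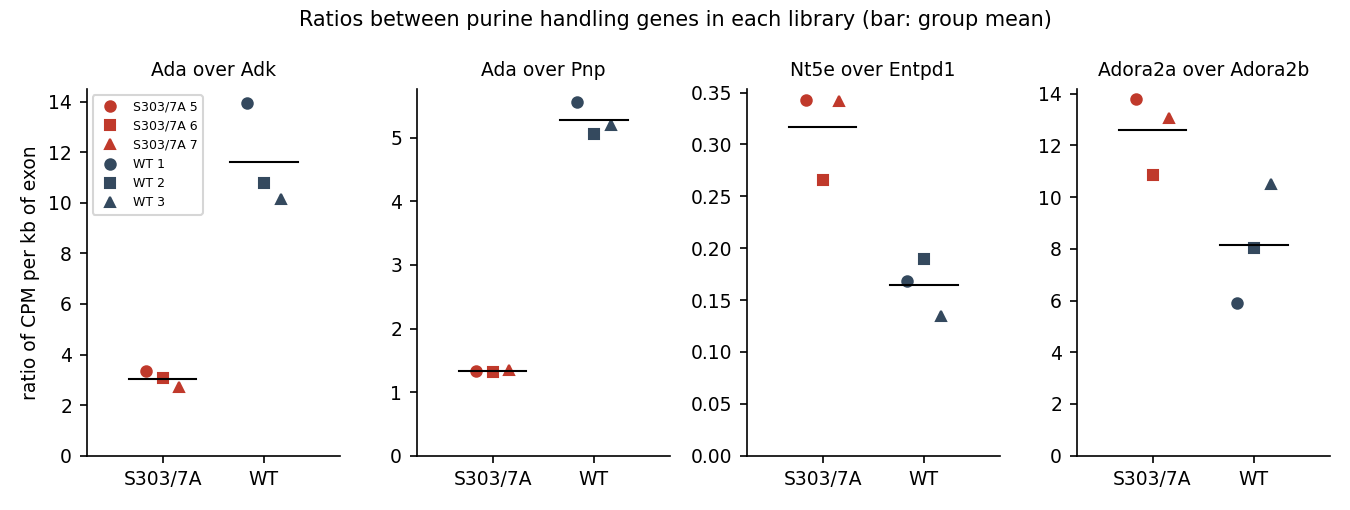
Ratios between pairs of the genes on the CPM per kb of exon scale, in each S303/7A library (red, left) and each WT library (blue-grey, right), with a bar at each group mean and axes from 0. Ada over Adk averages 3.04 in S303/7A and 11.6 in WT, and Ada over Pnp 1.33 in S303/7A and 5.27 in WT.

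Per kb of exon, Adora2a was the most abundant of the 10 transcripts in both groups, at 54.2 ± 9.21 CPM per kb in S303/7A and 51.0 ± 5.67 in WT (SD, n = 3 each). Ada held place 5 in S303/7A, at 7.15 ± 0.67 CPM per kb, and place 2 in WT, at 30.9 ± 2.34. In S303/7A the order was Adora2a, Dck, Entpd1, Slc29a1, Ada, Pnp, Adora2b, Nt5e, Adk and Ampd3. Dck, Entpd1 and Slc29a1 overlapped each other in range there, as did Pnp and Adora2b, Adora2b and Nt5e, and Adk and Ampd3. In WT the order was Adora2a, Ada, Entpd1, Dck, Slc29a1, Adora2b, Pnp, Adk, Nt5e and Ampd3. Entpd1, Dck and Slc29a1 overlapped in range in WT, and so did Adora2b with Pnp and Adk with Nt5e. Levels per kb rest on all annotated exons, so a gene that uses a short form is understated.

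Other genes of purine metabolism and signalling were examined in 8 lists that leave out the 10 members. Of their 118 genes 97 were tested, and 0 passed in the quasi-likelihood test of edgeR, which called 0.364% of all genes. At an unadjusted p under 0.05 there were 15 of the 97, or 15.5%, against 9.68% of all genes tested. DESeq2 called 2 of them, P2rx1 and Adora3, and limma-voom 0. Their log2 folds had a median of 0.02, with 55 above 0 and 42 below, and the groups did not overlap for 19 of the 97, against 16.0% of all genes tested.

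The purine synthesis list, the enzymes that build IMP, AMP and GMP, had 14 of 14 genes tested and a median log2 fold of -0.02. Pfas, the synthase of the fourth step, was at 25.4 CPM in S303/7A, against 32.8 CPM in WT on average (log2 fold -0.37 ± 0.13, adjusted p 0.413 in edgeR's quasi-likelihood test). The phosphoribosyl pyrophosphate synthetases Prps1 (-0.22 ± 0.10) and Prps2 (0.28 ± 0.14) had folds of opposite sign. In salvage and breakdown (16 of 18 tested, median 0.07), Adal, an adenosine deaminase-like enzyme that acts on methylated AMP, was at 23.0, 27.6 and 20.8 CPM in S303/7A, against 18.04, 21.5 and 14.7 CPM in WT. The groups overlapped, with a log2 fold of 0.40 ± 0.18 and an adjusted p of 0.562 in the same test. Gmpr, which turns GMP into IMP, had a log2 fold of -0.71 ± 0.31, and Uox, urate oxidase, was at 0.14 CPM or less in S303/7A and 0.67 CPM or less in WT, a low level in both. Of the nucleotide kinases and ribonucleotide reductase genes (14 of 18 tested, median 0.02), Dtymk, thymidylate kinase, had a log2 fold of -0.32 ± 0.08 and an adjusted p of 0.260 in that test. Nme4 (-0.78 ± 0.29) and the reductase subunit gene Rrm2 (0.51 ± 0.26), which follows the cell cycle, did not pass either. The intracellular nucleotidases (8 of 10 tested, median 0.01) had 0 genes at an unadjusted p under 0.05. Their smallest p values belonged to Nt5dc1 (-0.15 ± 0.09), Nt5dc2 (0.56 ± 0.67) and Nt5dc3 (-0.27 ± 0.50).

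Of the cell-surface nucleotide hydrolases, a list that takes in some family members of inner membranes (9 of 16 tested, median 0.10), Enpp5 had a log2 fold of -0.54 ± 0.20, Entpd7 0.31 ± 0.13 and Entpd5 0.29 ± 0.13, and their adjusted p values were 0.446, 0.502 and 0.541 by edgeR's quasi-likelihood test. Of the transporters (5 of 7 tested, median -0.01), the ENT2 gene Slc29a2 was at 2.57, 3.20 and 2.14 CPM in S303/7A, against 3.85, 4.58 and 2.83 CPM in WT (log2 fold -0.51 ± 0.28). Slc29a3 (0.15 ± 0.14) and the nucleobase transporter gene Slc43a3 (0.26 ± 0.30) did not pass. In adenosine receptor signalling (20 of 21 tested, median 0.05, 5 at an unadjusted p under 0.05), the receptor gene Adora3, known from mouse mast cells, was at 0.16, 0.21 and 0.47 CPM in S303/7A, against 1.27, 1.56 and 0.90 CPM in WT. Its libraries did not overlap, and its log2 fold of -2.13 ± 0.52 had an adjusted p of 0.239 in edgeR's test and 0.0446 in DESeq2. Adcy7, an adenylyl cyclase of leukocytes that makes cyclic AMP, was at 563 CPM in S303/7A, against 647 CPM in WT on average (log2 fold -0.20 ± 0.06, adjusted p 0.291 in edgeR's test). Pde7a, a phosphodiesterase that breaks cyclic AMP down, was at 36.7, 26.4 and 33.8 CPM in S303/7A, against 19.3, 23.2 and 24.8 CPM in WT (log2 fold 0.53 ± 0.17, adjusted p 0.356 in edgeR's test).

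The receptors for ATP and other nucleotides, with the release channel gene Panx1, had 11 of 14 genes tested and the lowest median of the 8 lists, -0.79, with 8 of the 11 folds below 0 and 4 at an unadjusted p under 0.05. P2rx1, an ATP-gated channel of platelets, was at 12.6, 12.01 and 11.8 CPM in S303/7A, against 24.7, 26.3 and 20.4 CPM in WT. The groups were well apart, the log2 fold was -0.97 ± 0.14, and the adjusted p was 0.0565 in the quasi-likelihood test of edgeR. It passed in DESeq2 (1.08e-06) and in edgeR's test without the low-count filter (0.0176). P2rx4 (-0.66 ± 0.20) and the ADP receptor gene P2ry1 (-0.97 ± 0.30), known from platelets, had adjusted p values of 0.350 and 0.354 in edgeR's test. Markers of platelets and basophils, which carry CD49b too, moved with these receptors: 12 of 12 tested platelet markers had folds below 0 (median -0.75, summed level 210 to 280 CPM in S303/7A, against 403 to 438 CPM in WT), and so did 10 of 10 basophil and mast cell markers (median -1.04, summed level 299 to 425 CPM in S303/7A, against 531 to 986 CPM in WT). Itga2b (log2 fold -1.05 ± 0.17) is in both lists and enters both sums, so the lists are not fully separate. The platelet gene Pf4 was at 13.2, 9.35 and 14.2 CPM in S303/7A, against 25.1, 25.9 and 25.7 CPM in WT. The basophil gene Mcpt8 was at 22, 26.9 and 36.7 CPM in S303/7A, against 27.3, 102 and 56.4 CPM in WT. The part of platelets and basophils in the receptor values, and in that of Adora3, was not tested. Ada was lower in S303/7A as both of these lists were. The part of these cells in the Ada values was not tested.

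**Figure D4:**
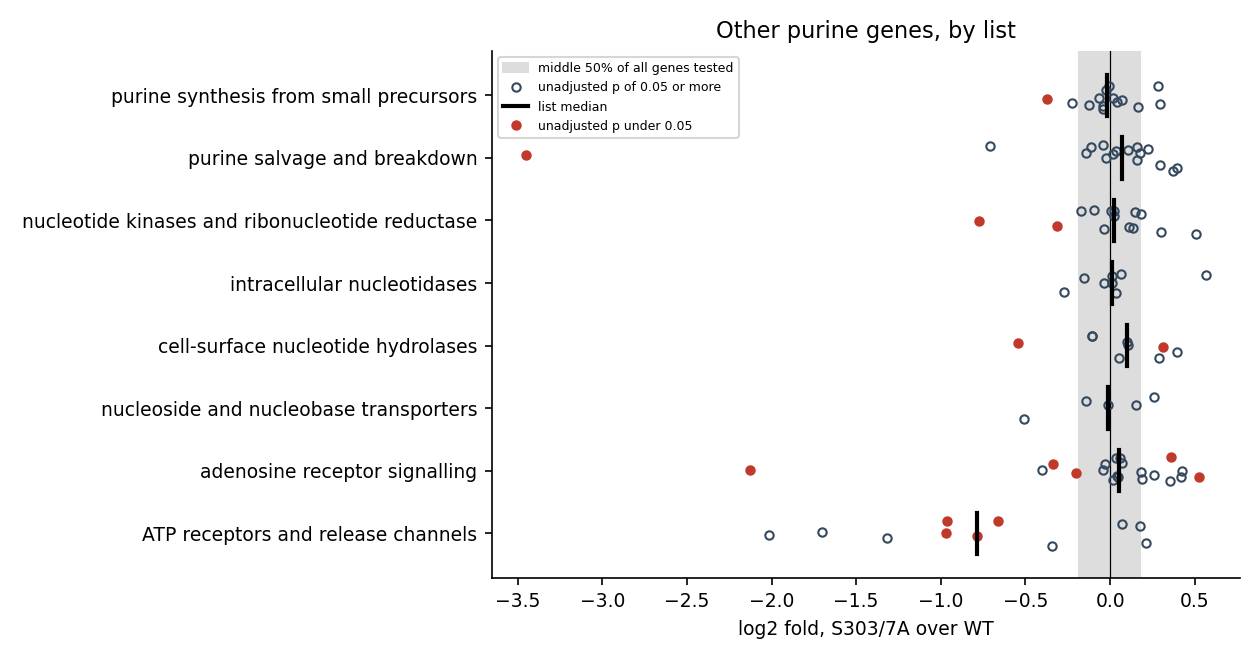
Log2 fold of S303/7A over WT for each tested gene of the 8 purine lists (points, red where the unadjusted p was under 0.05), with the list median as a bar and the middle 50% of all genes tested shaded. The medians of 7 lists lie between -0.02 and 0.10, and that of the ATP receptors and release channels at -0.79.

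The genes around Ada on chromosome 2 were set beside it, chosen by position alone. Of 82 annotated genes of the count table whose lower coordinate lies within 1 Mb of that of Ada, 24 were tested, and 0 passed in the quasi-likelihood test of edgeR, 0 in DESeq2 and 0 in limma-voom, with 2 at an unadjusted p under 0.05. Their median log2 fold was 0.07, with 13 above 0 and 11 below. The nearest, Pkig, an inhibitor of protein kinase A whose end lies 0.4 kb from that of Ada, was at 9.12, 10.8 and 14.9 CPM in S303/7A, against 12.98, 13.1 and 10.7 CPM in WT, with overlap and a log2 fold of -0.08 ± 0.21 (adjusted p 0.960). Serinc3, 81.5 kb away on the same side, had a log2 fold of 0.17 ± 0.05, and on the other side Ywhab (244.7 kb) and Tomm34 (303.3 kb) had 0.08 ± 0.12 and 0.14 ± 0.08. None of these 4 genes passed the test.

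**Figure D5:**
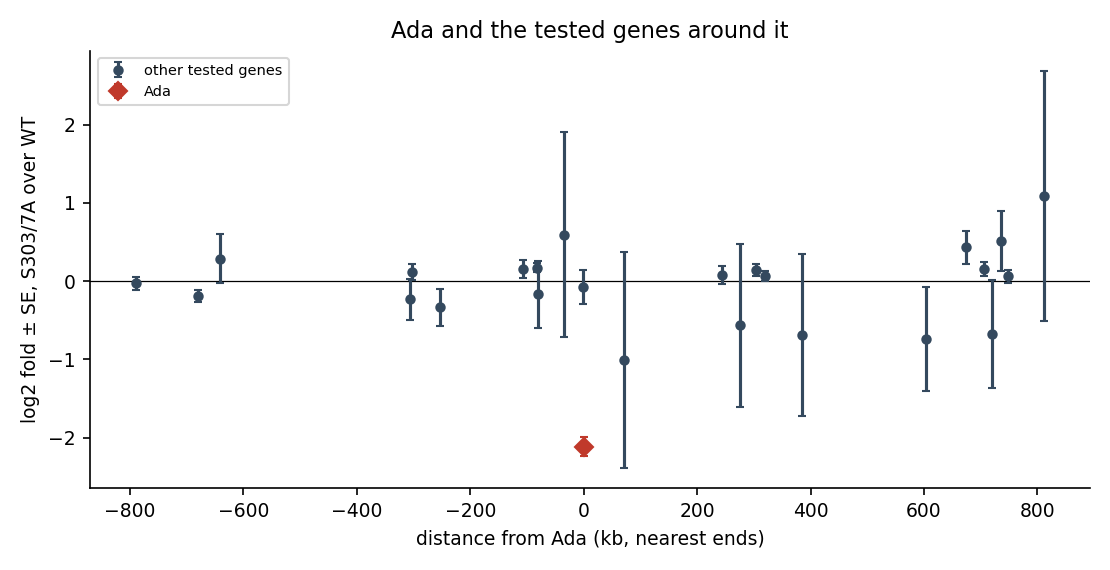
Log2 fold of S303/7A over WT (± SE) of Ada (red diamond) and of the 24 other tested genes whose lower coordinate lies within 1 Mb of that of Ada (blue-grey), against distance from Ada in kb between nearest ends. Ada lies at -2.11 and the others between -1.01 and 1.09, those farthest from 0 having wide SE.

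Likeness to Ada was measured as Pearson's r of log2 CPM over the 6 libraries, which share the genotype contrast, so a high r mainly reports that contrast. Among 9496 genes whose average log2 CPM in the fit, which follows the mean CPM, was at least 2, r was highest for Tmem40 (0.998), Itln1 (0.994), Zfp990 (0.992), Chrne (0.991) and Plxna3 (0.989). Tmem40, a membrane protein gene, was at 3.97, 4.04 and 3.66 CPM in S303/7A, against 6.74, 6.78 and 6.73 CPM in WT. Chrne, which encodes a subunit of the muscle acetylcholine receptor, was at 14.5, 15.5 and 15.5 CPM in S303/7A, against 31.3, 32.0 and 27.6 CPM in WT. The lectin gene Itln1 was at 0.023 CPM or less in S303/7A and 20.2 to 35.9 CPM in WT, and the zinc finger gene Zfp990, which has many similar copies and is uncertain for that reason, at 0.14 CPM or less in S303/7A and 7.31 to 9.21 CPM in WT. Itln1 and Zfp990 reached that average only through WT. Plxna3, a plexin gene, was at 3.15, 3.43 and 2.95 CPM in S303/7A, against 6.25, 6.01 and 6.64 CPM in WT. Of the other members, r to Ada was 0.69 for Adora2b, 0.63 for Adk, 0.60 for Pnp and 0.52 for Entpd1, and -0.88 for Nt5e. It was nearer 0 for Slc29a1 (0.08), Ampd3 (-0.16), Adora2a (-0.20) and Dck (-0.24). The highest of the members, Adora2b, held rank 924 among the 9496 genes.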

How the data were processed

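Per the labels' protocols, sorted splenic NK cells gave total RNA for SMART-seq HT libraries. The authors deposited raw counts per gene. The submitters' processing notes name STAR, featureCounts, Trimmomatic and DESeq2 and the build GRCm38 (mm10), without versions. The deposited normalized table was not used here.

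The counts were tested with edgeR 4.0.16 (R 4.3.3). Genes passing filterByExpr (minimum count 10, minimum total 15), 16480 of 55291, were scaled with TMM factors and tested with the quasi-likelihood test over all 6 libraries, S303/7A over WT, with Benjamini-Hochberg adjustment over all genes tested and a threshold of 0.05. SE are Wald-type, from the same fit. The procedure was also run on counts simulated from its own fitted model, so that run cannot check how well the model describes these data. Likeness used log2 CPM with a prior count of 2. Exon lengths and positions are from GENCODE M21 (GRCm38), the authors' build. Alternatives were DESeq2 1.42.0, limma-voom (limma 3.58.1), other scalings, no filter, thinning to equal totals and leaving out each library.

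The members and lists were chosen with earlier results of these data known. Named beyond the 10 members were Hsf1, the 3 genes of smallest unadjusted p in each purine list, the 2 nearest tested genes with a mean of at least 1 CPM on each side of Ada, and the 5 genes most like Ada, predicted loci left out. Markers were chosen for naming after their values were seen. Of 11 cell type lists, the NK, T, B, basophil, platelet and erythroid lists are given with their sums. The erythroid list had a median log2 fold of -0.08, the plasma cell list 0.05, the neutrophil list -0.99, the monocyte list -0.23, the dendritic cell list 0.25 and the innate lymphoid list 0.21. The p-values set the difference between genotypes against the spread between mice, 3 per genotype. In edgeR's test the estimate of that spread also draws on the other genes tested.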

Additional observations from a re-analysis of the deposited data

How the results depend on the processing

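As reported 60 of 16480 genes were called, with DESeq2 434 of 19993, with limma-voom 38 of 16480 and without the low-count filter 171 of 34067. Leaving out each library in turn gave 31, 57 and 30 calls without S303/7A 5, 6 and 7, and 27, 5 and 21 without WT 1, 2 and 3. Ada was called and lower in all 12 alternatives, and it was the only member called in any of them. In the 8 purine lists, 0 genes were called as reported, 2 with DESeq2, 1 without the filter, and 0 in the other 10. Around Ada, 0 neighbours were called in all 12. Ampd3 was the only member whose fold moved by more than its spread between replicates, to -0.79 without S303/7A 7. Median-of-ratios factors, library totals and thinning gave 60, 61 and 54 calls. The cause of these differences in counts was not tested. No paired analysis was possible because the groups share no replicate numbers. The labels give no batch. With 3 mice per genotype and fewer counts in S303/7A, differences of low genes such as Adora3 are measured least well.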
